A study of Mus musculus with 6 samples.

Results

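Heart muscle genes were read in mouse lung RNA on all 6 arrays of a cigarette smoke study in 3 mouse strains. The genes described here are 10 genes of atrial-type heart muscle: Actc1, Myh6, Tnnt2, Tnni3, Myl4, Myl7, Nppa, Mybpc3, Ryr2 and Sln. They and the gene lists set beside them were chosen by name, with earlier results of these data known. Every probe set whose single gene symbol in the platform annotation is one of the 10 was taken. That gave 12 probe sets for the 10 genes, of 12488 probe sets and 8251 named genes on the array. Actc1 and Myl4 have a pair of probe sets each. Of the 12 probe sets, 11 of 9 genes passed the filter on low signal and entered the tests. Sln did not pass.

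The groups were smoked ICR lung, control ICR lung, smoked DBA lung, control DBA lung, smoked C57 lung and control C57 lung, with 1 array each. Smoked mice were exposed to the smoke of 3 cigarettes a day on 5 days a week for 4 weeks, and controls carry no treatment in the labels. The strain names are given only as ICR, DBA and C57, without substrain, age, sex or any engineered allele, and the labels do not settle whether the RNA of an array came from 1 animal or from several. With 1 array a group, the difference between the smoked and control array of a strain has no replicate check, and tests could be made only over the 3 strains or over both exposures.

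In mice, as background, heart muscle of atrial type does not end at the left atrium but continues as a sleeve in the wall of the pulmonary veins into the lung. Its cells contract through sarcomeres, in which myosin of the thick filament pulls on actin of the thin filament when calcium released from the sarcoplasmic reticulum binds the troponin complex. The atrial form of this muscle uses light chains encoded by Myl4 and Myl7 and secretes the hormone made from Nppa, whereas ventricular muscle uses the light chain encoded by Myl2. RNA of a whole lung does not say where the muscle was, so the sleeves of the veins and a rim of atrium left on a dissected lung cannot be told apart here. In bulk RNA, fewer cells of a type and less RNA per cell cannot be told apart either.

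The arrays differed in brightness and in the balance of signal along transcripts. The median intensity was 25.9 on the smoked ICR array and lay between 52.2 and 84.8 on the other 5. The 3′ to 5′ signal ratio of the actin control was 4.75 on the smoked ICR array and 1.46 to 2.75 on the others, and that of the Gapdh control was 2.39 there and 0.952 to 1.69 elsewhere. All values below described as log2 were brought to a common distribution by quantile normalisation after adding 8.05 to each intensity. No pair of arrays held identical values. On arrays the number of arrays, not a count of reads, limits the precision.

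Defining markers of heart muscle cells were uneven. The ventricular light chain Myl2 was read at 1.42 to 6.41, below the added constant of 8.05 on 6 of 6 arrays. Of 27 measured other genes of heart muscle cells, 3 to 4 lay below the constant on the ICR arrays and 1 on each of the others. The next 3 genes, all dim, were picked after their values were seen. Actn2, the alpha-actinin of the Z disc, was read at 3.56 to 8.55 and Kcnj3, a subunit of the atrial acetylcholine-gated potassium channel, at 2.15 to 11.6, each below the constant on 4 arrays. Nkx2-5, a transcription factor of heart muscle, was read at 3.47 to 16.3 and was below it on 2 arrays. Brightest by mean among the 27 were Cox6a2, read at 223 to 909, and Atp2a2, read at 194 to 754. The 10 genes described here, summed, reached 2079 intensity units in smoked and 4349 in control ICR lung, 7650 and 4538 in DBA lung, and 5688 and 7054 in C57 lung, and the only member value below the constant was Sln in smoked ICR lung. The sarcomere genes among the 10 were read above the constant on every array. So were other genes that ventricle and slow skeletal muscle use, Myl3 at 13.7 to 520 and the beta myosin heavy chain Myh7 at 283 to 662. Myh7 was named after its values were seen. Its probe set, the brighter of 2, carries the suffix that the manufacturer gives to probes shared within a gene family. The share of Myh6 or other myosins in that signal was not tested.

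The thick filament was represented by Myh6, Myl7, Myl4 and Mybpc3. Myh6 encodes the alpha heavy chain, the motor of adult mouse heart muscle. It was read at 315 in smoked and 634 in control ICR lung, at 1011 and 505 in DBA lung, and at 550 and 803 in C57 lung. The smoked array was the brighter one in DBA and the dimmer one in ICR and C57, and after normalisation Myh6 spanned 0.73 log2 units over the 6 arrays. Myl7, the atrial regulatory light chain, was read at 371 in smoked and 751 in control ICR lung, at 1674 and 958 in DBA lung, and at 1223 and 1567 in C57 lung. Its order of exposures was that of Myh6 in each strain, and both normalised ICR values, 9.57 smoked and 9.67 control, lay below all 4 others.

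Myl4 encodes the atrial essential light chain, and its probe sets differed. The brighter one was read at 257 in smoked and 500 in control ICR lung, at 1600 and 963 in DBA lung, and at 842 and 1052 in C57 lung. The dimmer one was read at 26.1 in smoked and 130 in control ICR lung, at 168 and 183 in DBA lung, and at 123 and 96.2 in C57 lung. The log2 difference between them varied by 1.38 over the arrays, against 0.27 for the pair of Actc1 probe sets. The signs of their smoke differences were opposite in DBA and C57. Smoked minus control was 0.00 in ICR, 0.44 in DBA and −0.24 in C57 for the brighter probe set, and −1.20, −0.40 and 0.33 for the dimmer one. Mybpc3 encodes cardiac myosin-binding protein C, which steadies the myosin heads. It was read at 33.5 on both ICR arrays, at 81.4 in smoked and 116 in control DBA lung, and at 98.3 in smoked and 147 in control C57 lung. Of the 11 tested probe sets Mybpc3 spanned the widest range after normalisation, 1.60 log2 units, and its residual SD of 0.61 was the highest.

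Thin filament genes were the cardiac alpha-actin Actc1, the tropomyosin-binding troponin Tnnt2 and the inhibitory troponin Tnni3. The brighter Actc1 probe set was read at 702 in smoked and 1710 in control ICR lung, at 1978 and 1222 in DBA lung, and at 1882 and 2193 in C57 lung. The dimmer one was read at 315 and 800 in ICR lung, at 978 and 489 in DBA lung, and at 887 and 1047 in C57 lung, smoked first, and both probe sets had their lowest normalised value in control DBA lung. Actins are near-identical in coding sequence, and the brighter probe set carries the suffix that the manufacturer gives to probes shared within a gene family, and the share of other actins in its signal was not tested.

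Tnnt2 was read at 97.6 in smoked and 224 in control ICR lung, at 338 and 189 in DBA lung, and at 379 and 429 in C57 lung. Both C57 arrays, at 8.4 smoked and 8.5 control on the normalised log2 scale, lay above the 4 others, which ran from 7.40 to 7.95. Tnni3 was read at 209 in smoked and 338 in control ICR lung, at 586 and 325 in DBA lung, and at 396 and 539 in C57 lung. It was the steadiest of the 11 tested probe sets, with a range of 0.65 log2 units, and none of the 5 gaps between neighbours in its order of arrays was wider than its residual SD of 0.33.

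Calcium handling was represented by Ryr2, the release channel of the sarcoplasmic reticulum, and Sln, sarcolipin, a small inhibitor of the calcium pump that in mouse heart is mainly atrial. Ryr2 was read at 26.1 in smoked and 62.1 in control ICR lung, at 68.5 and 40 in DBA lung, and at 35.8 and 66.9 in C57 lung. None of its neighbour gaps was wider than its residual SD of 0.40. Sln was read at 7.45 in smoked and 10.4 in control ICR lung, at 35.2 and 12.9 in DBA lung, and at 22.3 and 12.6 in C57 lung, and its mean of 4.54 lay under the lowest mean kept, 5.34, on the log2 scale.

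Nppa encodes the precursor of atrial natriuretic peptide, the hormone that atrial muscle secretes when stretched. It was read at 59.9 in smoked and 85.1 in control ICR lung, at 279 and 208 in DBA lung, and at 259 and 244 in C57 lung. After normalisation its values were 7.11 and 6.63 in ICR lung, 7.66 and 7.54 in DBA lung, and 7.86 and 7.75 in C57 lung, smoked first. The arrays thus fell in the order of the strains, C57 above DBA above ICR, and the residual SD of 0.15 was the lowest among the members. The C57 and DBA values were neighbours within that SD, and the gap between control DBA lung and smoked ICR lung, like that between the ICR arrays, was wider than it.

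**Figure D1:**
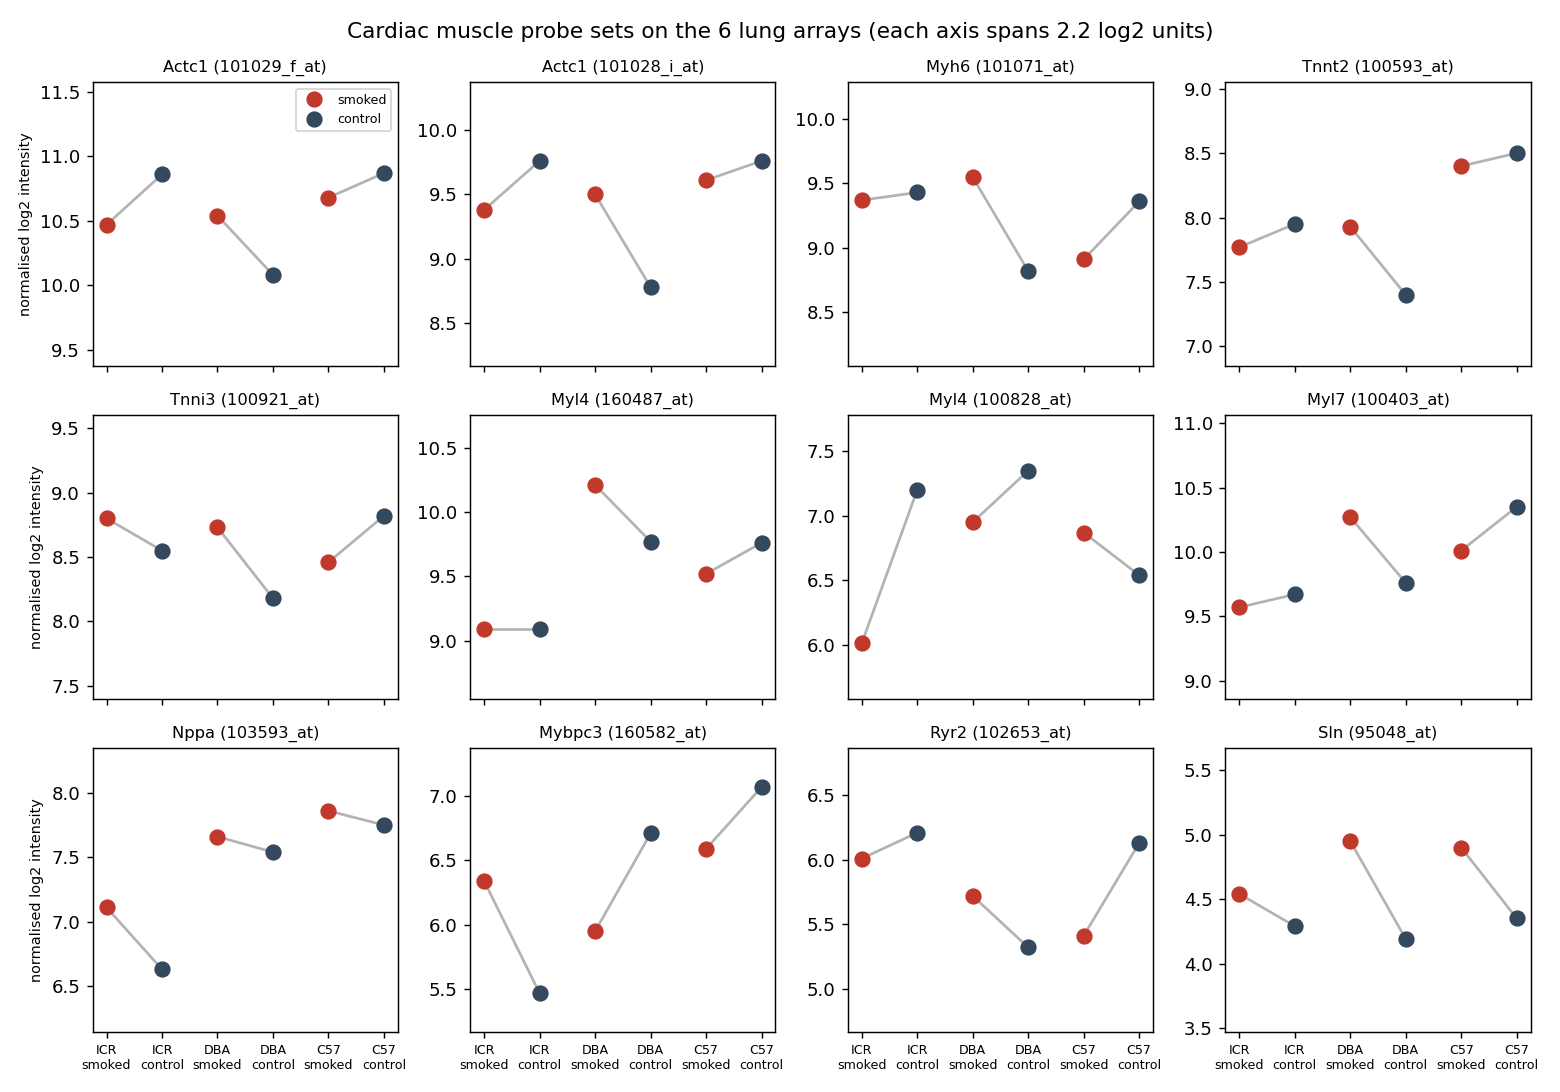
Normalised log2 intensity (y axis, each panel spanning 2.2 log2 units) of the 12 cardiac muscle probe sets on the 6 arrays (x axis), 1 point per array, smoked in red and control in dark blue, with a grey line joining the arrays of a strain. Nppa is lowest on both ICR arrays, Tnnt2 is highest on both C57 arrays, and for Actc1, Myh6, Tnni3 and Myl7 the DBA pair slopes the other way from the C57 pair.

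The stretch around the annotated start, from 250 bases before it to 50 after, was available for 9 of the 10 genes in the RefSeq table for GRCm38.p6, with a second start for Tnnt2, so 10 windows were searched on both strands. Motifs known in heart muscle promoters were sought. They were the CArG box, bound by SRF, and the MEF2 site, both by name. A box of TATAAA was a further motif. Sites of zinc finger GATA factors were read as TGATAA, or in the other spelling as AGATAA. For the homeodomain factor NKX2-5 the letters were TNAAGTG. For T-box factors the letters were AGGTGT. For TEAD factors the letters were CATTCC. The windows of Myl7, Actc1, Nppa and Mybpc3 are shown, since they hold a CArG box, a MEF2 site or the most kinds of motif. They lie at chr11:5898733-5899032 on the minus strand for Myl7, at chr2:114052826-114053125 on the minus strand for Actc1, at chr4:148000472-148000771 on the plus strand for Nppa and at chr2:91117894-91118193 on the plus strand for Mybpc3. Each is written 5′ to 3′ on the gene's strand, and capitals mark the motifs found on either strand.
Myl7: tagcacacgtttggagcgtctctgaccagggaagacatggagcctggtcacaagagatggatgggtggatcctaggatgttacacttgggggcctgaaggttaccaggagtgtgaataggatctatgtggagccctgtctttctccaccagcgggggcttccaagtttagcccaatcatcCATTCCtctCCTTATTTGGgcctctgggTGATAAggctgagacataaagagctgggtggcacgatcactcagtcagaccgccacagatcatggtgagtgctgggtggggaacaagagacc
Actc1: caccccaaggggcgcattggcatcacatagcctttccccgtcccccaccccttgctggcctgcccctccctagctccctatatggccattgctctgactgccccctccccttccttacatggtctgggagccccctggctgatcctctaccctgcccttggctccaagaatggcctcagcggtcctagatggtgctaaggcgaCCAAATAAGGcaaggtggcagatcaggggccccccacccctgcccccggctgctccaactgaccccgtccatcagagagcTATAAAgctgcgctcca
Nppa: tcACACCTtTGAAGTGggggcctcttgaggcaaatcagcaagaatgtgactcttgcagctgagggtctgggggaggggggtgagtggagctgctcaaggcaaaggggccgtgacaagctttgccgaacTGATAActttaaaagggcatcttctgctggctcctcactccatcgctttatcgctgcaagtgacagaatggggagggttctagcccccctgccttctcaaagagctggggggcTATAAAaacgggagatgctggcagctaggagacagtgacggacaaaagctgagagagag
Mybpc3: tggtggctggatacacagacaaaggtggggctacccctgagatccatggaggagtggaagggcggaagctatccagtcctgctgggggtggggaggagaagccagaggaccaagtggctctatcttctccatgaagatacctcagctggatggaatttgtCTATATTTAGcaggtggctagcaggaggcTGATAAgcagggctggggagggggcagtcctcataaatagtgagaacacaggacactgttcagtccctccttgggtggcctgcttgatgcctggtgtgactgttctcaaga

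A CArG box stood in the windows of Actc1 and Myl7, at −47 and −61 from the start, and 1.63% of the 32851 mouse windows in the table hold one. Mybpc3 held a MEF2 site at −90, as do 3.19% of all windows. TGATAA was found in Myl7, Nppa and Mybpc3 (9.05% of all windows), AGATAA in Tnnt2 (11.2%), TATAAA in Actc1, Myh6 and Nppa (13.6%), CATTCC in Myh6, Tnnt2 and Myl7 (14.7%), AGGTGT in Tnni3 and Nppa (13.7%) and TNAAGTG in Nppa (11.5%). The first base of TATAAA lay at position 34 in Actc1, 2 in Myh6 and −9 in Nppa, counted from the annotated start. Whether that start is the one used was not tested. No 2 matches in these windows overlapped. The windows of Myl4 and Ryr2 and the second one of Tnnt2 held none of these letters. Myl7 and Actc1, which share the CArG box, had their lowest normalised values on different arrays, smoked ICR for Myl7 and control DBA for Actc1, and a match is a description of the letters, not a bound site.

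Smoked against control lung was first compared over the 3 strains. None of the heart muscle genes passed the test in either direction. Of 7453 probe sets tested with limma, 3 (0.0403%) passed an adjusted p of 0.05, all higher in smoked lung, and 0 of the 11 member probe sets did. At an unadjusted p of 0.05 the count was 0 of 11, against 123 (1.65%) of all. The fitted smoked minus control difference ran from −0.42 ± 0.29 (SE, 6 arrays) for the dimmer Myl4 probe set to 0.24 ± 0.20 for Nppa on the log2 scale, with an adjusted p of 1 for each. Over the 11 probe sets the 95% intervals reached from −1.08 to 0.69, so differences of 2-fold were outside the interval for all but the dimmer Myl4 probe set.

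The smoked and control arrays overlapped for all 11 tested member probe sets, whereas 3.58% of all tested probe sets had groups that did not overlap. Of the 11 probe sets, 1, Nppa, had a difference of the same sign in all 3 strains (9.09%), and 17.6% of all tested probe sets did. The Nppa differences were 0.48 in ICR, 0.12 in DBA and 0.10 in C57. Before normalisation the ICR intensities of Nppa ran the other way, 59.9 smoked and 85.1 control. Without scaling its fitted smoke difference was 0.01 in place of 0.24. Sln, which had not passed the filter, was higher on all 3 smoked arrays than on all 3 control arrays, as were 2.85% of the 12422 probe sets when no filter was set. Its smoked minus control difference in that unfiltered fit was 0.52 ± 0.25 (SE), with a 95% interval of −0.08 to 1.12 and an adjusted p of 0.999 by limma, and without scaling of the arrays its ICR difference was −0.25 in place of 0.25.

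Within the strains the members went different ways, and these differences carry no test. In the DBA pair, 9 of the 10 genes were higher on the smoked array, with a median log2 difference of 0.48, against a median of 0.03 over all tested probe sets. In the C57 pair, 2 of 10 were higher and the median was −0.29, against −0.01 for all. In the ICR pair 4 of 10 were higher and the median was −0.03, against 0.01 for all, and without scaling 1 of 10 was higher there. The signs in DBA and C57 were counted alike without scaling, 9 and 2 of 10. Of all tested probe sets with scaling, 53.8% in DBA, 48.5% in C57 and 51.2% in ICR were higher on the smoked array.

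The DBA differences were close to one another for most sarcomere genes. They were 0.73 for Myh6, 0.72 and 0.46 for the Actc1 probe sets, 0.56 for Tnni3, 0.53 for Tnnt2, 0.51 for Myl7 and 0.44 for the brighter Myl4 probe set, and 0.40 for Ryr2 and 0.76 for Sln. Mybpc3 at −0.76 and the dimmer Myl4 probe set at −0.40 had the other sign. In C57 the same sarcomere probe sets ran from −0.10 for Tnnt2 to −0.44 for Myh6, with −0.72 for Ryr2 and −0.48 for Mybpc3. In ICR they ran from −0.39 for both Actc1 probe sets to 0.25 for Tnni3, and Mybpc3 stood at 0.87. Before normalisation, Tnni3 was read at 209 in smoked and 338 in control ICR lung, and Mybpc3 at 33.5 in both.

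A difference of at least 2-fold between the smoked and control array was reached by 1 of the 11 tested member probe sets in ICR, by 0 in DBA and by 0 in C57. Over all tested probe sets the shares were 6.49%, 3.07% and 1.22%. The ICR case was the dimmer Myl4 probe set, at 0.436-fold. The brighter Myl4 probe set stood at 0.999-fold in the same pair. The smoked ICR array is the one with the highest 3′ to 5′ ratios, and their part in these differences was not tested.

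**Figure D2:**
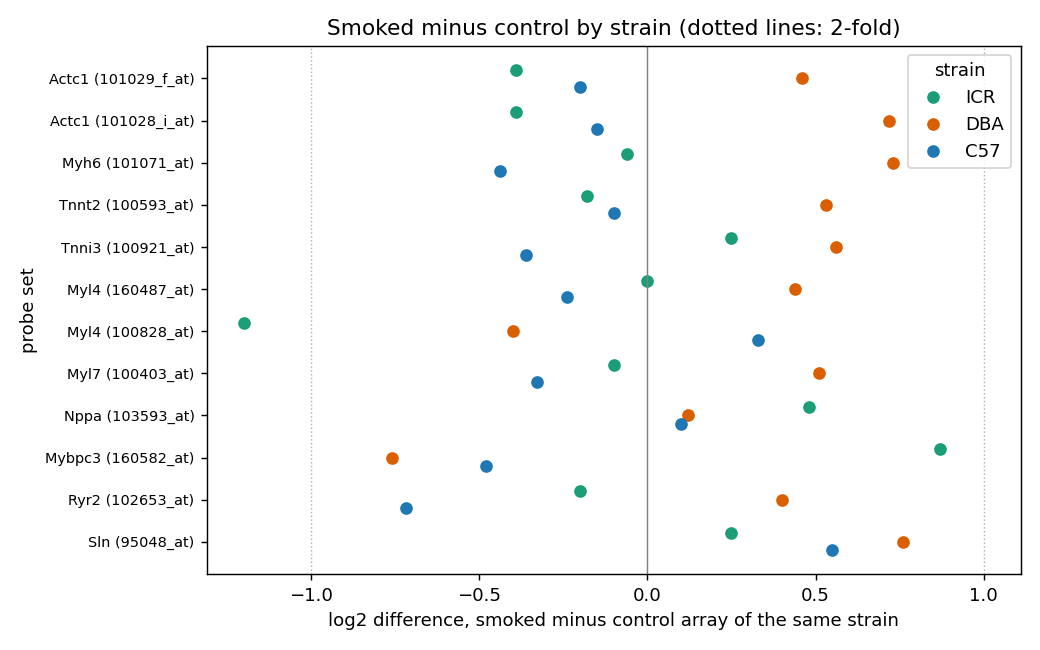
Log2 difference of the smoked minus the control array (x axis) for each of the 12 cardiac muscle probe sets (y axis), with 1 point per strain and dotted lines at 2-fold. In DBA most points lie right of 0, between 0.40 and 0.76, and in C57 most lie left of it; the only point past 2-fold is the dimmer Myl4 probe set in ICR.

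Whether the smoke difference of a strain departed from that of the other strains was tested with an extra term for that strain. No member passed in any of the 3 tests. For ICR, 0 of 7453 probe sets passed (0%), with 1076 (14.4%) at an unadjusted p of 0.05, and 2 of the 11 members were among these, namely Mybpc3 and the dimmer Myl4 probe set. The extra difference of Mybpc3 in ICR was 1.49 ± 0.36 (SE), with a 95% interval of 0.58 to 2.40 and an adjusted p of 0.29 by limma. It includes an ICR difference of 0.87 that appears only after normalisation, since Mybpc3 was read at 33.5 on both ICR arrays. For DBA, 43 probe sets (0.577%) passed and 0 of 11 members did. At an unadjusted p of 0.05 it was 281 of all (3.77%) and 1 of the members, the dimmer Actc1 probe set, whose extra difference was 0.99 ± 0.48 (SE; interval 0.02 to 1.96; adjusted p = 1 by limma). For C57, 22 probe sets (0.295%) passed and 0 members did, and at an unadjusted p of 0.05 it was 235 (3.15%) and 0 members.

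The DBA pair also differed in markers of other cells. Hepatocyte genes, 10 measured, summed to 5846 on the smoked and 894 on the control DBA array, against 173 and 324 in ICR and 110 and 402 in C57, and their median difference was 2.31 in DBA, where 9 of the 10 were at least 2-fold higher on the smoked array. Albumin (Alb) and Mup3, both secreted by liver, had an extra smoke difference in DBA of 6.62 ± 0.63 and 6.49 ± 0.71 (SE; adjusted p = 1.04e-10 and 2.59e-09 by limma). Smooth muscle genes, 11 measured, had median differences of 0.37 in ICR, 0.21 in DBA and −0.18 in C57, so in DBA and C57 their sign was that of the heart muscle genes. Genes of alveolar type I and II cells, 8 measured, had medians of 0.15, 0.12 and 0.09 in the same order of strains. Oesophagus and tracheal epithelium genes, 11 measured and 5 tested, summed to 505 on the smoked and 735 on the control DBA array, against 207 and 249 in ICR and 1906 and 1013 in C57. Of these, Krt4, a keratin of stratified epithelium, and Mt4, a metallothionein of such epithelium, had an extra smoke difference in DBA of −2.53 ± 0.53 and −2.87 ± 0.69 (SE; adjusted p = 0.00399 and 0.023 by limma). Of 18 fast skeletal muscle genes, 5 were at least 2-fold lower on the smoked DBA array, with a median of −0.64. The part of these cells in the DBA difference was not tested.

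The strains were compared next. With both exposures of a strain combined and smoke in the model, no member passed the test between any 2 strains. Between ICR and DBA, 84 of 7453 probe sets (1.13%) passed, and between ICR and C57 170 (2.28%), and between DBA and C57 129 (1.73%), with 0 of 11 members in each. At an unadjusted p of 0.05 the members numbered 2, 4 and 1 of 11, and all probe sets 1157 (15.5%), 1342 (18%) and 856 (11.5%).

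Of the members, Nppa came closest to the threshold. It was lower in ICR than in C57 lung by a fitted log2 difference of −0.93 ± 0.24 (SE), or 0.525-fold, with a 95% interval of −1.48 to −0.38 and an adjusted p of 0.0933 by limma. Scaling the arrays to a common median in place of quantile normalisation gave −1.11 and an adjusted p of 0.0448. With single arrays left out it did not pass, at −1.11 without the smoked and −0.75 without the control ICR array. Against DBA the Nppa difference was −0.73 ± 0.24, with an adjusted p of 0.211. The brighter Myl4 probe set was lower in ICR than in DBA lung by −0.90 ± 0.23 (interval −1.42 to −0.38; adjusted p = 0.115). It passed without scaling (−1.77, adjusted p = 0.0427 by limma). It also passed without the smoked or the control C57 array, where the difference stayed at −0.90. With an array of the compared strains left out it did not pass. The values were −0.62 and −1.18 without the smoked and control DBA array, and −0.85 and −0.95 without the smoked and control ICR array. Its partner probe set gave −0.55 ± 0.35 for the same comparison.

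Tnnt2 was lower in DBA than in C57 lung by −0.78 ± 0.26 (SE; interval −1.37 to −0.20), with an adjusted p of 0.245 by limma. Between ICR and C57 lung Mybpc3, Myl7 and the brighter Myl4 probe set gave −0.93, −0.56 and −0.56, with adjusted p-values of 0.258, 0.27 and 0.249. Single arrays moved these values: Mybpc3 was −0.19 without the control ICR array and −1.67 without the smoked one, Myl7 and Myl4 were −0.29 and −0.32 without the control C57 array, and Tnnt2 in DBA against C57 was −0.45 without the control DBA array. Myh6, Tnni3 and both Actc1 probe sets had intervals that held 0 in all 3 strain comparisons. By sign, 5 of the 10 genes were lower in ICR than in DBA, 7 lower in ICR than in C57 and 8 lower in DBA than in C57, with medians of 0.02, −0.38 and −0.20. Of all tested probe sets, 48.8%, 51.2% and 53.8% were lower in these comparisons. The count of 8 became 4 without the control DBA array, with a median of 0.12, and 5 without the control C57 array, with a median of 0.01, while the count of 5 became 8 without the control DBA array, with a median of −0.21. Without scaling, all probe sets shifted by a median of −0.74, −0.52 and 0.16 in these comparisons, and the medians of the members were −0.78, −1.13 and −0.07.

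The arrays of 2 strains did not overlap for 4 of the 11 member probe sets between ICR and DBA, for 6 between ICR and C57 and for 6 between DBA and C57. The shares over all tested probe sets were 47.8%, 51.2% and 52.5%. With 2 arrays a strain such a gap is frequent, and the members' counts were near that background.

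**Figure D3:**
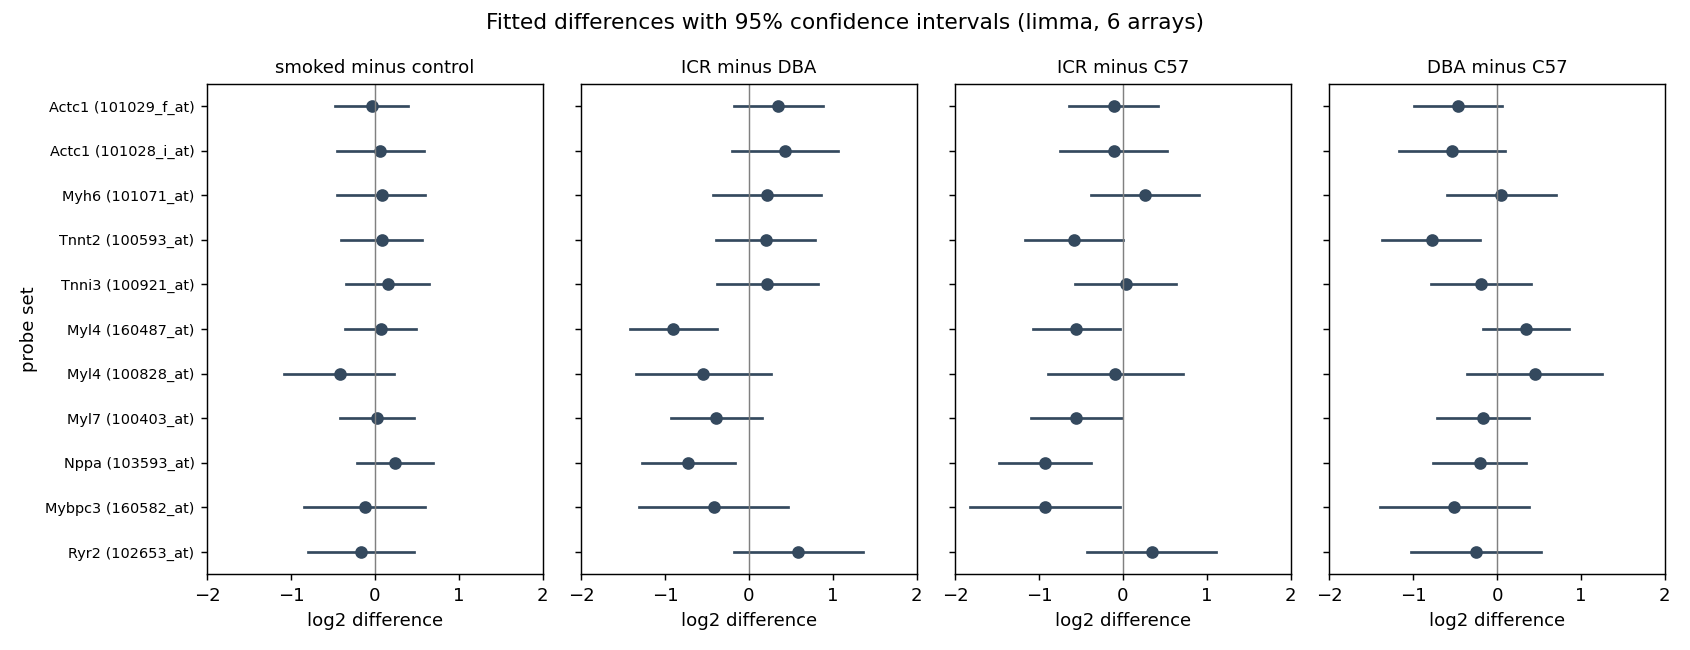
Fitted log2 differences (x axis, points) with 95% confidence intervals (lines) for the 11 tested cardiac muscle probe sets (y axis) in 4 comparisons over 6 arrays. For smoked minus control every interval holds 0; for Nppa in ICR minus C57 and the brighter Myl4 probe set in ICR minus DBA the intervals end at −0.38, and no adjusted p was under 0.05.

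Skeletal muscle has its own forms of the same proteins, which gave a comparison within the same RNA. Of 12 tested fast skeletal muscle genes, 1 was lower in ICR than in DBA lung, 7 were lower in ICR than in C57 and 7 were lower in DBA than in C57, and none was higher. The ICR against DBA call was Acta1, and it was absent without either ICR array and with the arrays at a common median. The medians over the 18 measured were −0.32, −1.88 and −1.94. Acta1, the skeletal alpha-actin, was read at 9.75 in smoked and 34.7 in control ICR lung, at 108 and 404 in DBA lung, and at 2468 and 3232 in C57 lung. It was lower in ICR than in C57 by −6.10 ± 0.38 (SE; adjusted p = 0.000297) and lower in DBA than in C57 by −3.84 ± 0.38 (adjusted p = 0.00243), both by limma. Its cardiac counterpart Actc1 differed by −0.11 ± 0.23 and −0.46 ± 0.23 in these comparisons.

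Tnnt3, the fast skeletal troponin T, was lower by −3.33 ± 0.32 in ICR than in C57 and by −2.71 ± 0.32 in DBA than in C57, and Tnnt2 differed by −0.58 ± 0.26 and −0.78 ± 0.26. Myh1, a fast myosin heavy chain, was read at 5.01 in smoked and 2.26 in control ICR lung, at 4.61 and 35.6 in DBA lung, and at 248 and 457 in C57 lung. Since 3 of these values lie below the added constant, the sizes of its fitted differences, −4.41 ± 0.52 in ICR against C57 and −3.85 ± 0.52 in DBA against C57, depend on that constant. Myh6 differed by 0.26 ± 0.29 and 0.05 ± 0.29. The other fast heavy chains listed, Myh2, Myh4 and Myh8, did not pass the filter. Myh2 was read at 1.02 to 3.66, below the added constant on every array. Myh4 did not follow Myh1, at 36.9 in smoked and 30.9 in control DBA lung and 15.2 and 36.8 in C57 lung. Myh8 did, at 163 and 204 in C57 lung and at 31.8 or below on the other arrays. The pairing of cardiac and skeletal forms was not in the planned design. Myl1, the fast essential light chain, was lower by −2.86 ± 0.29 and −2.59 ± 0.29, and the brighter probe set of Myl4, the atrial essential light chain, differed by −0.56 ± 0.23 and 0.35 ± 0.23. The differences of Acta1, Tnnt3, Myh1 and Myl1 passed at an adjusted p of 0.05 by limma, and those of Actc1, Tnnt2, Myh6 and Myl4 did not; the difference between the forms was not tested. Mylpf, the fast regulatory light chain and counterpart of Myl7, was named after its values were seen. It did not pass, at −1.60 ± 0.45 in ICR against C57 (adjusted p = 0.108) and −1.08 ± 0.45 in DBA against C57 (adjusted p = 0.388), and Myl7 differed by −0.56 ± 0.24 and −0.17 ± 0.24. Epithelial genes of oesophagus and trachea differed between the same strains. Of the 5 tested, 2 were lower in ICR than in C57, Krt13 at −3.44 ± 0.54 (SE; adjusted p = 0.0164) and Mt4 at −4.14 ± 0.64 (adjusted p = 0.0159), by limma, and 0 passed between ICR and DBA or between DBA and C57. These 2 calls were absent without either ICR array, and Mt4 was read below the added constant on both ICR arrays and on the smoked DBA array. Their part in the skeletal muscle difference was not tested.

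The range over the 6 arrays had a median of 0.84 log2 units for the 10 heart muscle genes and 2.79 for the 18 fast skeletal genes, with 0.68 for 11 smooth muscle genes. It was 1.04 for 27 other heart muscle genes and 0.77 for 8 alveolar genes. By probe set, the median was 0.98 for the 11 tested members and 0.79 for all 7453 tested.

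**Figure D4:**
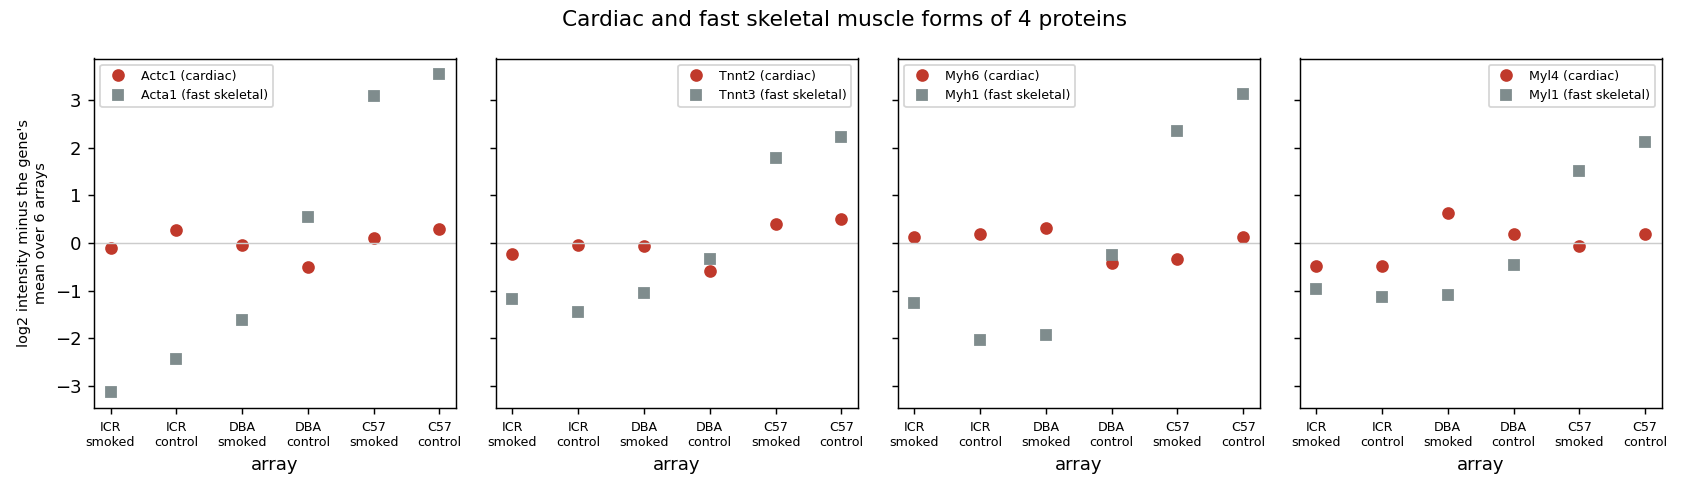
Log2 intensity minus the mean of the gene over 6 arrays (y axis) on each array (x axis) for the cardiac form (red circles) and a fast skeletal form (grey squares) of actin, troponin T, myosin heavy chain and the essential light chain. The skeletal forms are highest on both C57 arrays, with Acta1 spanning 6.68 log2 units, while the cardiac forms span 0.73 to 1.12.

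Other genes of heart muscle cells, 27 measured and 20 tested, were counted in the same comparisons. Between smoked and control lung 0 passed, between ICR and DBA 0, between ICR and C57 2, both lower in ICR, and between DBA and C57 0. The pair lower in ICR were Ldb3, a Z disc protein, at −1.47 ± 0.27 (SE; adjusted p = 0.0302), and Mb, myoglobin, at −1.40 ± 0.29 (adjusted p = 0.0464), by limma. Both genes are also expressed in skeletal muscle, and neither passed without the smoked ICR array, without the control ICR array or without the control C57 array, where 0 of the 20 did. The within-strain medians of these 27 genes were −0.09 in ICR, 0.19 in DBA and −0.22 in C57, beside −0.03, 0.48 and −0.29 for the 10 members.

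Among ventricular and slow muscle genes, 7 measured and 4 tested, Myl3 and Tnnt1 passed. Myl3, the essential light chain of ventricle and slow skeletal fibres, was read at 13.7 in smoked and 33.9 in control ICR lung, at 225 and 152 in DBA lung, and at 410 and 520 in C57 lung. It was lower in ICR than in DBA by −1.87 ± 0.26 (SE), lower in ICR than in C57 by −3.28 ± 0.26 and lower in DBA than in C57 by −1.41 ± 0.26, with adjusted p-values of 0.0124, 0.00105 and 0.0309 by limma. The last of these calls was absent without the control C57 array, without the control DBA array and without scaling, and the first without either ICR array. Tnnt1, the slow skeletal troponin T, was higher in DBA than in C57 by 1.85 ± 0.26 (adjusted p = 0.00859). Of 10 tested smooth muscle genes 1, Tpm2, was lower in ICR than in C57, at −1.59 ± 0.32 (adjusted p = 0.0436), and 0 passed between the other strains. That call was absent without either ICR array or the control C57 array. Tpm2 had the widest range of the smooth muscle list, 2.22 log2 units, against a median of 0.68 for the list. The part of skeletal muscle in its signal was not tested.

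**Figure D5:**
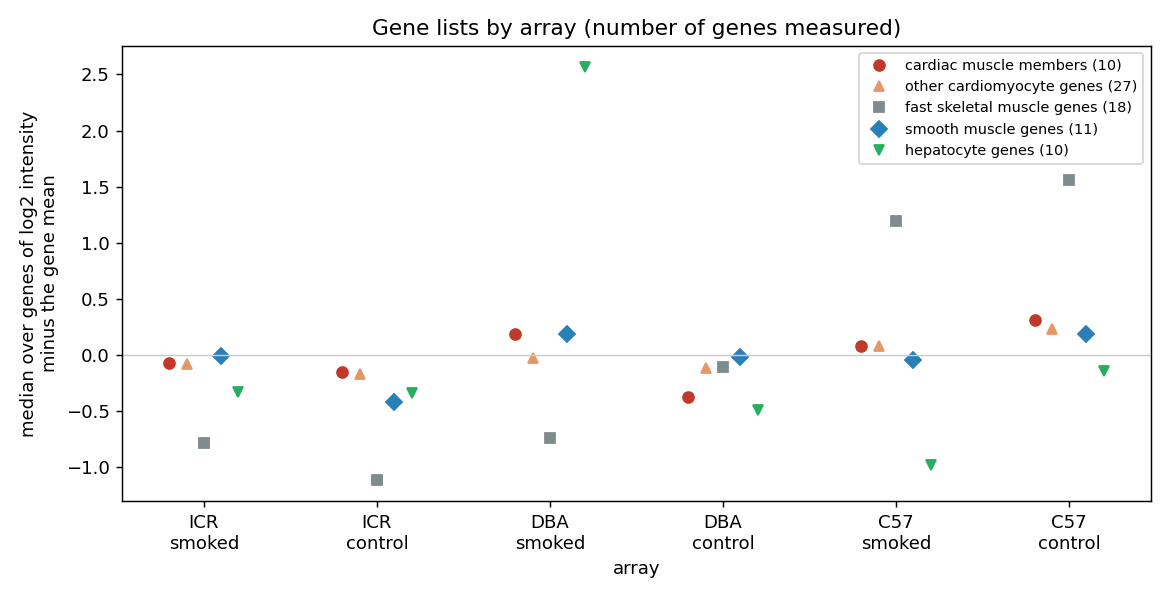
Median over the genes of a list of log2 intensity minus the gene's own mean (y axis) on each of the 6 arrays (x axis), for 5 lists with the number of genes measured in the legend. The heart muscle members stay between −0.38 and 0.31, fast skeletal muscle genes lie at 1.19 and 1.56 on the C57 arrays and at −0.11 or below elsewhere, and hepatocyte genes reach 2.57 on the smoked DBA array.

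The members followed one another only in part across the arrays. The median over the 10 genes of the value centred on each gene's mean was −0.07 in smoked and −0.15 in control ICR lung, 0.19 and −0.38 in DBA lung, and 0.08 and 0.31 in C57 lung. The control C57 array was the highest for 5 of the 10 genes and the smoked DBA array for 3. The control DBA array was the lowest for 6, and either ICR array for 2 each. Tnni3 and Myl7 followed this profile most closely, with root mean square differences of 0.152 and 0.17 log2 units over the 6 arrays, and Mybpc3, at 0.521, departed from it furthest. Myl4, Nppa and Ryr2 stood at 0.377, 0.374 and 0.339, the same order of size as the values of the profile itself.

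The genes most like this profile among 6735 other named probe sets were Acss1, Gtf3c4, Map7, Hspa4, Tbcb, Krt32, Mcm3ap and Cenpv, with root mean square differences of 0.06 to 0.0881. None of the 8 was in the list of other heart muscle genes. Acss1, a mitochondrial acetyl-CoA synthetase, was read at 232 in smoked and 403 in control ICR lung, at 728 and 425 in DBA lung, and at 556 and 766 in C57 lung. All 8 were nearer to the median profile than any member was, but they were picked as the nearest of 6735 and the members were not picked by nearness. Tnni3, the closest member, would have ranked 136 among the 6735 and Mybpc3 5676. The likeness rests on 6 arrays and is given as a description.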

How the data were processed

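Lung RNA was labelled with biotin after Trizol extraction, per the labels' protocols, and hybridised to Affymetrix mouse arrays. The deposited values are intensities, 1 per probe set and array, from 0.0305 to 10579. How probes were summarised, and whether arrays were scaled before deposit, is not stated in the labels or headers. The members and gene lists were chosen with earlier results of these data known. Probe sets were named from the platform annotation, in which 10855 had 1 symbol, 396 several and 1237 none, and all member symbols matched RefSeq by gene identifier. Here 8.05, the 20th percentile of all values, was added and log2 taken, 66 control probe sets were dropped, arrays were quantile normalised, and tests were run on 7453 probe sets, those whose mean exceeded the 40th percentile. Fold changes on this scale understate changes of dim probe sets. limma 3.58.1 (R 4.3.3), with a mean trend, fitted strain and smoke to 6 arrays with 2 residual degrees of freedom, or with an extra smoke term for 1 strain and 1 residual degree, and p-values were adjusted by Benjamini-Hochberg over all 7453. A gene was called at an adjusted p of 0.05 and is represented by its probe set with the highest mean where genes are counted. Genes of other lists were named if called, at most 6 a list, and the 8 genes nearest to the median member profile were named. The fit was also run on simulated data with independent noise and no array differences in brightness or 3′ to 5′ ratio. That run therefore does not cover such differences between these arrays. Each group has 1 array, so p-values rest on the spread between strains and exposures, not between animals of a group. Figures were drawn with matplotlib 3.10.9 (Python 3.11.15).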

Additional observations from a re-analysis of the deposited data

How the results depend on the processing

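The number of arrays and the low signal of Sln, Ryr2 and Mybpc3 limit what could be seen. Over the alternatives (added constant at the 10th or 40th percentile, no filter or one at the 60th percentile, no scaling or a common median, no trend or a robust prior, no strain term, arrays left out), 8 of 910 tested member values passed the threshold and 85 uncalled values changed sign. Of 216 within-strain member values, 17 moved by more than the spread between arrays and 3 changed sign. The smoke comparison pairs the smoked and control array of each strain through its strain term. The cause of the changes below was not tested.

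The smoke comparison called 3 probe sets, with 1 under no filter, a common median or no trend and 0 with no strain term, and 0 to 38 with arrays or strain pairs left out (33 without the C57 pair, 0 without the ICR pair). ICR against DBA called 84 (38 higher, 46 lower), with 38 unfiltered, 261 unscaled (4 higher, 257 lower) and 14 to 280 with arrays left out. ICR against C57 called 170 (69 higher, 101 lower), with 44 unfiltered (12 higher, 32 lower), 7 higher and 138 lower unscaled, and 35 to 437 with arrays left out. DBA against C57 called 129 (65 higher, 64 lower), with 67 unfiltered, 85 unscaled (64 higher, 21 lower) and 111 to 282 with arrays left out. The extra smoke term called 22 for C57, with 0 unfiltered, unscaled or at a common median, 3 with no trend and 6 with a robust prior. It called 43 for DBA, with 24 at the 10th percentile constant, 7 unfiltered, 25 at the 60th percentile filter and 7 unscaled, and 0 for ICR, with 1787 unscaled.

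Members called were 0 throughout the main comparisons, with 1 (Nppa) for ICR against C57 at a common median, 1 (Myl4) for ICR against DBA unscaled and 0 to 1 with arrays left out, and 4 (both Actc1 probe sets, the dimmer Myl4 probe set and Myl7) for the extra term of ICR unscaled. The member median for DBA against C57 was −0.20, and −0.50 to 0.12 with arrays left out, at 0.12 without the control DBA array. Unscaled medians were −0.78 for ICR against DBA, −1.13 for ICR against C57, 1.42 and −1.1 for the extra terms of DBA and ICR, and −0.96 for smoked against control ICR lung, where 6 probe sets then reached 2-fold. Over all probe sets the median of that unscaled ICR pair was −0.67, and their share at 2-fold is not given here. At 1.5-fold with scaling, 2 of 11 member probe sets in ICR, 3 in DBA and 1 in C57 passed. The shares of all tested probe sets were 25.2%, 9.73% and 7.53%. The 1 ICR case at 2-fold became 0 at 3-fold or with the 40th percentile constant. Counts of list genes with arrays left out were added after seeing the data: fast skeletal genes lower than in C57 numbered 7 to 11 in ICR and 7 to 9 in DBA.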
